A study of Mus musculus with 15 samples.

Results

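Translation initiation factors are the proteins that bring a ribosome, an initiator tRNA and a capped mRNA together, and the transcripts of this family were followed through 3 activation states of microglia. The family was taken as every gene whose annotated symbol starts with Eif, without the Eif2ak kinases, on mouse whole-genome bead arrays. It comprised 89 of 45281 probes and 47 genes. For 38 of these genes at least 1 probe was above background on enough arrays to be measured, among 8561 genes measured in all. The other 9 (Eif1ax, Eif2s3y, Eif2s3x-ps1, Eif3e, Eif3m, Eif4e1b, Eif4g3, Eif4ebp3 and Eif5a2) had no probe above background on any array and have no values below. The symbol rule also takes in proteins whose known work lies partly outside initiation, such as Eif4a3 of the exon junction complex, Eif5a, which acts in elongation, and Eif6, which holds free large ribosomal subunits apart from small ones.

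The cells were microglia grown in culture from C57BL/6 mouse embryonic stem cells, a model of the macrophages of the brain that lacks its neurons and astrocytes. Cells received interleukin-4 (IL-4, 100 U/ml, 3 arrays), lipopolysaccharide with interferon-γ (LPS 500 ng/ml with IFN-γ 20 ng/ml, 3 arrays) or TGF-β, the transforming growth factor (50 ng/ml, 3 arrays) for 24 h, or were left untreated (6 arrays). The study asked how pro-inflammatory and anti-inflammatory states of these cells differ. The labels number the arrays without naming separate cultures, so the p-values describe the spread between arrays, which may be technical.

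In the scanning pathway, eIF2 carries the initiator tRNA to the small ribosomal subunit and eIF2B reloads eIF2 with GTP. Stress kinases phosphorylate eIF2, which then blocks eIF2B, lowers general translation and favours translation of the transcription factor Atf4. The cap is read by eIF4E within eIF4F, and the eIF4E-binding proteins compete for eIF4E until mTOR phosphorylates them. The scaffold eIF3 holds these parts on the small subunit. In macrophages this machinery is known to shape which cytokine mRNAs are translated. The arrays report transcript levels only, not protein, phosphorylation or translation.

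Between 13601 and 14789 probes were above background on each array. LPS/IFN-γ replicate 3 stood apart: 114 genes lay at least 2-fold beyond both other arrays of its group, against 0 to 4 genes on any other array, and no initiation factor gene was among the 114. Results with LPS/IFN-γ are therefore given also with that array left out, where named below as without replicate 3. Of 15 listed microglial and macrophage markers 13 had an annotated probe. Of these markers 10 were measured, among them Csf1r, Trem2 and Tyrobp. P2ry12, Cd68, Gpr34 and Siglech were among those not measured, whether at background or without a probe. Of the 10, Cx3cr1, Tmem119 and Olfml3 were above background on all 3 TGF-β arrays and on no other array. They passed the filter, at least 3 arrays above background, only through TGF-β. Partly for that reason, all 10 markers were above background on each TGF-β array, against 6 or 7 on every other array. Their summed linear signal was 14953 to 16737 with IL-4, 10219 to 11982 with LPS/IFN-γ, 18599 to 19756 with TGF-β and 14338 to 16543.5 in untreated cells. Listed markers of neurons, oligodendrocytes and fibroblasts that had a probe were at background on all arrays, and 1 astrocyte and 1 stem cell marker lay at the edge of it. Of 4 listed oligodendrocyte markers 3 had a probe. In such bulk RNA, fewer cells of a type and less RNA per cell cannot be told apart.

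TGF-β lowered initiation factor transcripts broadly. LPS/IFN-γ moved them in both directions, at shares near those of all genes. IL-4 gave few calls, at a share slightly above that of all genes. A gene was called at a limma adjusted p under 0.05 over all 8561 genes. With TGF-β 21 of 38 initiation factor genes fell (55.3%), against 19.0% of all genes, and 2 rose (5.26%), against 19.7% of all genes. In either direction 23 of 38 (60.5%) changed with TGF-β, against 38.8% of all genes. With LPS/IFN-γ 10 rose (26.3%), against 21.5% of all genes, and 14 fell (36.8%), against 34.3% of all genes. These LPS/IFN-γ shares, 63.2% in either direction against 55.7%, lie near the background. With IL-4 1 gene rose (2.63%), against 5.64% of all genes, and 5 fell (13.2%), against 6.32% of all genes. The IL-4 total was 15.8%, against 12% of all genes.

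**Figure D1:**
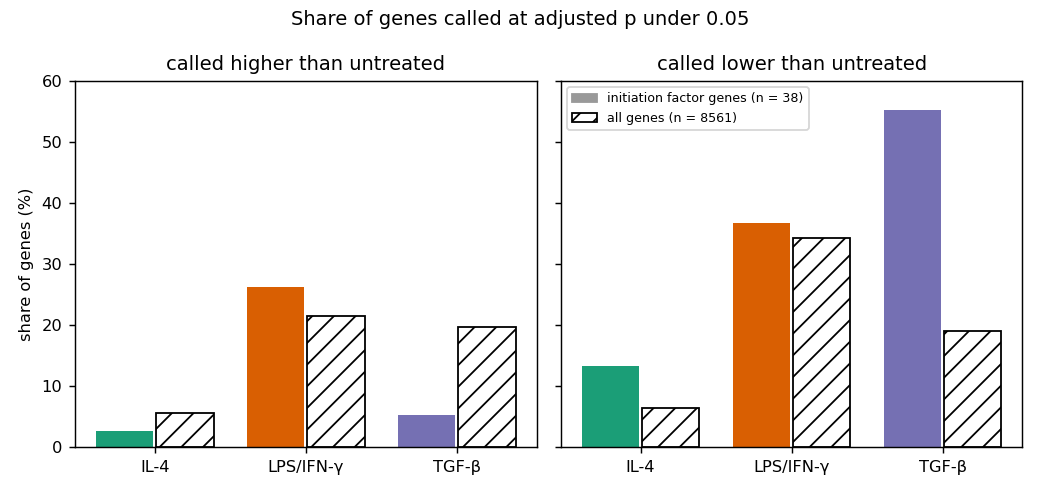
Share of genes (%, y axis) called higher (left) or lower (right) than untreated at an adjusted p under 0.05 for each treatment. Filled bars stand for the 38 initiation factor genes and hatched bars for all 8561 genes; the widest gap is among lower calls with TGF-β, 55.3% against 19.0%.

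The sizes were small. On the log2 scale the differences between TGF-β and untreated cells ran from -0.67 to 0.28 over the 38 genes. Their median was -0.25, against -0.002 over all genes measured, and 31 of 38 were below 0, against 50.3% of all genes. With LPS/IFN-γ they ran from -0.69 to 0.71 with a median of -0.10, against -0.08 over all genes. With IL-4 they ran from -0.47 to 0.41 with a median of -0.11, against -0.02. Below 0 were 25 of 38 with LPS/IFN-γ (58.6% of all genes) and 30 of 38 with IL-4 (54.8% of all genes). Initiation factor genes were bright, with a median level of 11.22 on the log2 signal scale against 8.85 over all genes. Among the 4082 genes with a mean level of 9 or more, TGF-β lowered 23.3%, and 20 of the 34 initiation factor genes in that range fell. With TGF-β all 3 arrays lay clear of all 6 untreated arrays for 23 members (60.5%, against 38.7% of all genes), below them for 21 (55.3%, against 18.9%) and above for 2 (5.26%, against 19.8%). With LPS/IFN-γ this held for 20 members (52.6%, against 46.9%), 9 above (23.7%, against 18.0%) and 11 below (28.9%, as in all genes). With IL-4 it held for 12 (31.6%, against 20.1%), 1 above (2.63%, against 8.78%) and 11 below (28.9%, against 11.4%), of which 5 were called.

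These directions were set against other ways of scaling the arrays, which matter here because many genes moved. With cyclic loess TGF-β gave 2 higher and 19 lower members, and with scaling by the median alone 0 and 21; relative to the median of all genes, 31 of 38 were lower under each. The LPS/IFN-γ split of 10 higher and 14 lower became 11 and 7 with cyclic loess and 3 and 15 with the median alone. Scaling by the median alone ended the higher LPS/IFN-γ calls of Eif1a, Eif1ad, Eif2a, Eif2b3, Eif4a2, Eif4e3 and Eif6. Cyclic loess ended the lower LPS/IFN-γ calls of Eif2b4, Eif2b5, Eif2s3x, Eif3i, Eif4e, Eif4enif1 and Eif4h. With TGF-β the median alone ended the calls of Eif3f, Eif3i, Eif4a1 and Eif4a2, and cyclic loess those of Eif2s3x and Eif4a1. Scaling by the median alone put the median of all genes at -0.18 with LPS/IFN-γ, at -0.13 with TGF-β and at -0.08 with IL-4. Without LPS/IFN-γ replicate 3 the LPS/IFN-γ calls numbered 16 (8 higher, 8 lower), against 48.2% of all genes, and those lost were Eif1a, Eif2b4, Eif2b5, Eif3i, Eif4a2, Eif4e, Eif4g2 and Eif4h. Without TGF-β replicate 2 the TGF-β calls numbered 15 (2 higher, 13 lower), against 31.7% of all genes, and those lost were Eif2b1, Eif2b5, Eif2s3x, Eif3j1, Eif4a1, Eif4a3, Eif4e2 and Eif4g2. Each of the 3 bead chips held all 4 groups, and every called member kept its direction within all 3 chips in each of the 3 comparisons with untreated cells. For most called members the treated arrays did not overlap the untreated ones. Their direction within a chip was thereby fixed, so this result is no separate check of them. The summed signal of the microglial markers was also higher on every TGF-β array than on any other array, and its part in these counts was not tested. That sum weighs bright genes most, such as Trem2 (mean log2 signal 12.91 with TGF-β, 12.30 untreated). Of the 10 markers 4 (Cx3cr1, Tmem119, Trem2 and Olfml3) were called higher with TGF-β, where 19.7% of all genes were, and 6 were not called. Of the 4, Cx3cr1, Tmem119 and Olfml3 were above background on TGF-β arrays alone. They were measured only because of those arrays, so the count of 4 follows partly from the filter.

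**Figure D2:**
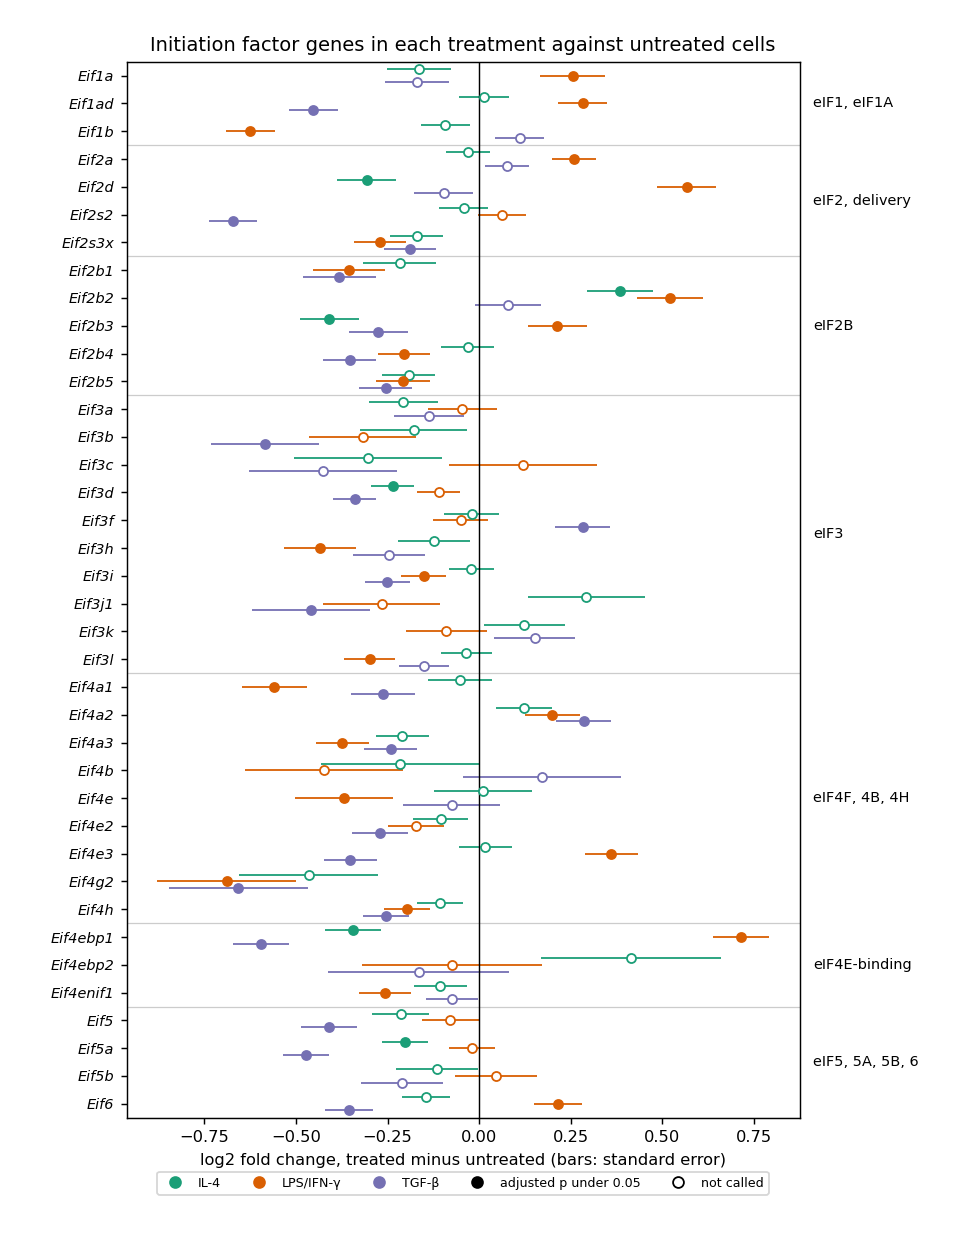
Log2 fold change against untreated cells (x axis) of the 38 measured initiation factor genes, grouped by role down the page, for IL-4, LPS/IFN-γ and TGF-β. Bars are standard errors and filled points are called; TGF-β points lie mostly left of 0, from -0.67 to 0.28, while LPS/IFN-γ points spread from -0.69 to 0.71.

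The eIF4E-binding protein Eif4ebp1, the mTOR-controlled brake on cap reading, had the highest LPS/IFN-γ difference of the family. Its log2 signal was 10.82, 11.02 and 11.07 with IL-4, 11.94, 12.10 and 12.04 with LPS/IFN-γ, and 10.73, 10.69 and 10.74 with TGF-β, against 11.18 to 11.41 on untreated arrays (median 11.34). The 3 treatments lay clear of the untreated arrays, LPS/IFN-γ above them and the other 2 below. Eif4ebp1 rose by 0.71 ± 0.08 with LPS/IFN-γ (log2 fold change ± SE, 1.64-fold, adjusted p = 1.6e-06), and its value without LPS/IFN-γ replicate 3 was 0.71. It fell by 0.60 ± 0.08 with TGF-β (adjusted p = 2.4e-05). It fell by 0.34 ± 0.08 with IL-4 (adjusted p = 0.00904), but without IL-4 replicate 1 the adjusted p was 0.0668. Eif4ebp2, its paralog, varied widely in untreated cells (9.51 to 10.73) and was not called with any treatment. Eif4enif1, which carries eIF4E into the nucleus, fell by 0.26 ± 0.07 with LPS/IFN-γ (adjusted p = 0.00695; -0.21 without replicate 3), a call lost with cyclic loess (adjusted p = 0.066).

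Of the eIF2 genes measured, the one for the beta subunit, Eif2s2, had the lowest TGF-β value of the family. Its log2 signal was 10.05, 9.95 and 9.81 with TGF-β, against 10.50 to 10.68 on untreated arrays (median 10.62). Every TGF-β array lay below every untreated array. Eif2s2 fell by 0.67 ± 0.07 with TGF-β (0.628-fold, adjusted p = 1.9e-06). With IL-4 it differed by -0.04 (95% interval -0.19 to 0.10) and with LPS/IFN-γ by 0.06 (-0.08 to 0.20), and neither was called. The X-linked gamma subunit gene Eif2s3x fell by 0.27 ± 0.07 with LPS/IFN-γ (adjusted p = 0.00441; -0.20 without replicate 3; adjusted p = 0.0864 with cyclic loess) and by 0.19 ± 0.07 with TGF-β (adjusted p = 0.0452). The TGF-β call was not kept without any 1 of the TGF-β arrays (adjusted p = 0.0743 to 0.12) or without several arrays of other groups.

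Eif2d and Eif2a encode factors that can deliver initiator tRNA without eIF2, and both rose with LPS/IFN-γ. Eif2d had log2 signals of 9.18, 9.12 and 8.97 with IL-4 and of 9.99, 9.98 and 9.90 with LPS/IFN-γ, against 9.24 to 9.53 on untreated arrays (median 9.43). Eif2d was thus above the untreated range with LPS/IFN-γ and below it with IL-4. It rose by 0.57 ± 0.08 with LPS/IFN-γ (adjusted p = 2.8e-05; 0.59 without replicate 3) and fell by 0.31 ± 0.08 with IL-4 (adjusted p = 0.0221; 0.052 without IL-4 replicate 2 and 0.129 without replicate 3). Eif2a rose by 0.26 ± 0.06 with LPS/IFN-γ (adjusted p = 0.00196), a call lost with scaling by the median alone (adjusted p = 0.074).

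The 5 eIF2B genes, whose inherited defects cause the white matter disease called vanishing white matter, had calls in both directions with LPS/IFN-γ. With LPS/IFN-γ 2 rose and 3 fell, where 21.5% of all genes rose and 34.3% fell. With TGF-β 4 of 5 fell, where 19.0% of all genes fell. With cyclic loess 2 were higher and 1 lower with LPS/IFN-γ, and with the median alone 1 and 3. Eif2b2, the beta subunit, had log2 signals of 9.49, 9.37 and 9.14 with IL-4 and of 9.48, 9.38 and 9.55 with LPS/IFN-γ, against 8.82 to 9.08 on untreated arrays (median 8.93). These arrays were all above the untreated ones. Eif2b2 rose by 0.52 ± 0.09 with LPS/IFN-γ (adjusted p = 0.000164; 0.48 without replicate 3) and by 0.38 ± 0.09 with IL-4 (adjusted p = 0.0118), where it was the only member that rose. The IL-4 call did not hold when replicate 1 was left out (adjusted p = 0.0801) or when arrays were scaled by the median alone (adjusted p = 0.0695).

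The catalytic pair of eIF2B is formed by the gamma and epsilon subunits, and their genes differed in response. Eif2b3 (gamma) had log2 signals of 9.17, 9.28 and 9.26 with IL-4, 9.83, 9.94 and 9.81 with LPS/IFN-γ and 9.27, 9.47 and 9.37 with TGF-β, against 9.47 to 9.83 on untreated arrays (median 9.68). The IL-4 arrays were clear of the untreated arrays, while those of the other 2 treatments met their range. Eif2b3 fell by 0.41 ± 0.08 with IL-4 (adjusted p = 0.00418), the lowest IL-4 value among called members, and by 0.28 ± 0.08 with TGF-β (adjusted p = 0.0135; 0.0812 without TGF-β replicate 1). It rose by 0.21 ± 0.08 with LPS/IFN-γ (adjusted p = 0.0356; 0.0449 without replicate 3), a call lost without LPS/IFN-γ replicate 1 or 2 and without untreated replicate 2 or 5. With scaling by the median alone it was 0.07 (adjusted p = 0.562). Eif2b5 (epsilon) had log2 signals of 11.19, 11.14 and 10.96 with LPS/IFN-γ and 11.15, 10.92 and 11.08 with TGF-β, against 11.23 to 11.35 on untreated arrays (median 11.32). It fell by 0.21 ± 0.07 with LPS/IFN-γ (adjusted p = 0.0239; 0.139 without replicate 3 and 0.275, at -0.09, with cyclic loess) and by 0.26 ± 0.07 with TGF-β (adjusted p = 0.0116; 0.083 without TGF-β replicate 2). Its further probes gave -0.13 and -0.16 with LPS/IFN-γ and were not called (adjusted p = 0.18 and 0.127), while both were called lower with TGF-β.

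The regulatory subunit genes Eif2b1 (alpha) and Eif2b4 (delta) had lower levels with both LPS/IFN-γ and TGF-β. Eif2b1 had log2 signals of 9.62, 9.72 and 9.49 with LPS/IFN-γ and 9.74, 9.38 and 9.64 with TGF-β, against 9.86 to 10.11 on untreated arrays (median 9.96), with no overlap. It fell by 0.35 ± 0.10 with LPS/IFN-γ (adjusted p = 0.00673; -0.30 without replicate 3) and by 0.38 ± 0.10 with TGF-β (adjusted p = 0.0064; 0.0553 without TGF-β replicate 2). Eif2b4 had log2 signals of 10.04, 9.92 and 9.95 with TGF-β, against 10.20 to 10.41 on untreated arrays (median 10.32). It fell by 0.35 ± 0.07 with TGF-β (adjusted p = 0.00121) and by 0.21 ± 0.07 with LPS/IFN-γ (adjusted p = 0.0246; 0.0636 without replicate 2 and 0.0959 without replicate 3), where cyclic loess gave -0.11 (adjusted p = 0.231).

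**Figure D3:**
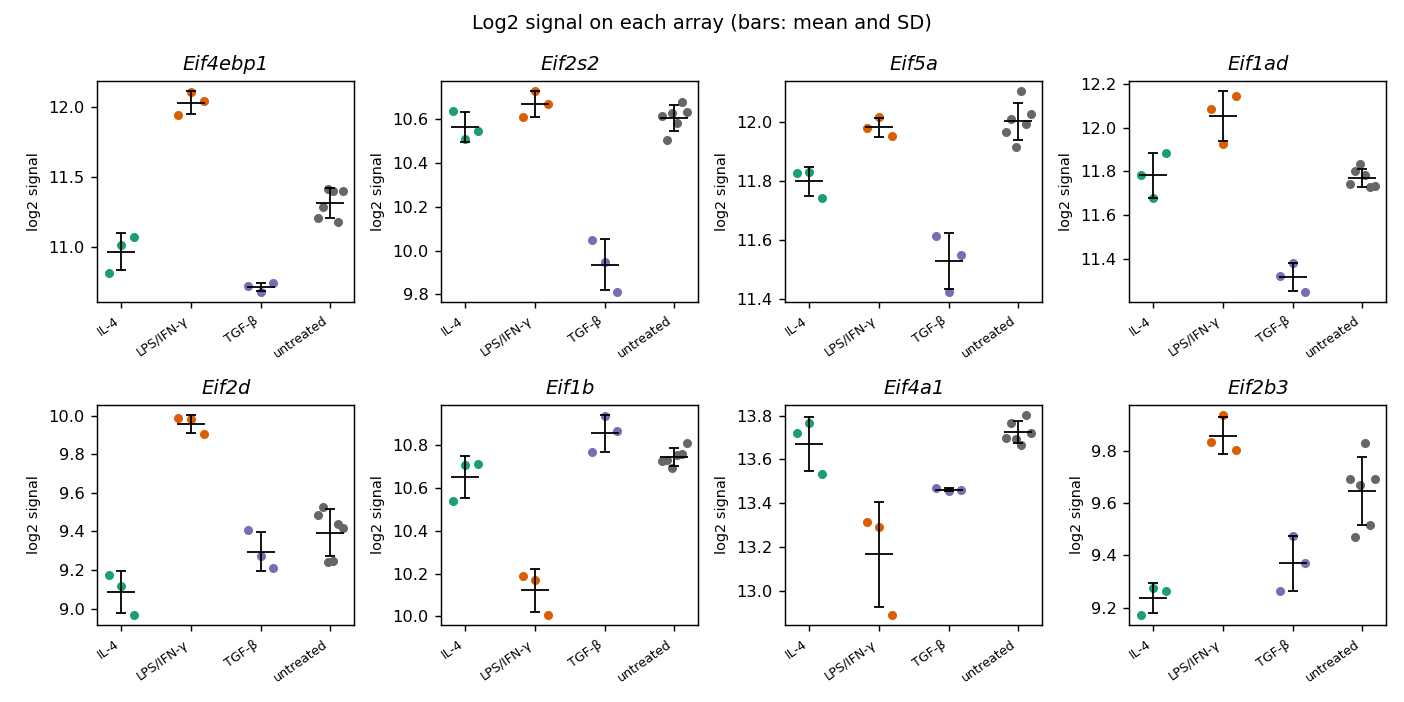
Log2 signal (y axis, a separate range in each panel) on every array for 8 initiation factor genes in IL-4, LPS/IFN-γ, TGF-β and untreated cells, left to right. Points are arrays and bars the mean and SD; Eif4ebp1 lies between 11.94 and 12.10 with LPS/IFN-γ and between 10.69 and 10.74 with TGF-β, against 11.18 to 11.41 untreated.

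The factors eIF1 and eIF1A guide start codon choice, and 3 genes of this group, 1 of them a relative by domain, were measured and called with LPS/IFN-γ. Of all genes 55.7% were called with that treatment. Eif1b, a paralog of eIF1, had log2 signals of 10.19, 10.17 and 10.01 with LPS/IFN-γ, against 10.69 to 10.81 on untreated arrays (median 10.74). The groups did not overlap. Eif1b fell by 0.62 ± 0.07 with LPS/IFN-γ (adjusted p = 1.6e-06; -0.57 without replicate 3), and its TGF-β difference of 0.11 (95% interval -0.03 to 0.25) was not called. Eif1ad, whose protein shares a domain with eIF1A, had log2 signals of 12.09, 11.92 and 12.14 with LPS/IFN-γ and 11.32, 11.38 and 11.25 with TGF-β, against 11.73 to 11.83 on untreated arrays (median 11.76). It lay above the untreated arrays with LPS/IFN-γ and below them with TGF-β. Eif1ad rose by 0.28 ± 0.07 with LPS/IFN-γ (adjusted p = 0.0024; 0.24 without replicate 3) and fell by 0.45 ± 0.07 with TGF-β (adjusted p = 8.7e-05). The LPS/IFN-γ call was lost under median scaling alone (adjusted p = 0.0827), and of 2 further probes 1 gave 0.26 (adjusted p = 0.0223) and 1 gave 0.02 (adjusted p = 0.839), while both were called lower with TGF-β. Eif1a rose by 0.25 ± 0.09 with LPS/IFN-γ (adjusted p = 0.0224), and this rested on replicate 3, without which it was 0.11 (adjusted p = 0.188).

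Of 10 measured eIF3 subunit genes, TGF-β lowered 4 and raised 1, LPS/IFN-γ lowered 3, and IL-4 lowered 1. Of all genes TGF-β lowered 19.0% and raised 19.7%, LPS/IFN-γ lowered 34.3% and IL-4 lowered 6.32%. The median eIF3 difference with LPS/IFN-γ was -0.13, and it was 0.01 with cyclic loess. Eif3d, a subunit that can bind the cap itself, had log2 signals of 13.12, 13.07 and 13.04 with IL-4 and 12.98, 12.99 and 12.95 with TGF-β, against 13.21 to 13.39 on untreated arrays (median 13.31). Both treatments lay below the untreated arrays. Eif3d fell by 0.34 ± 0.06 with TGF-β (adjusted p = 0.000333) and by 0.24 ± 0.06 with IL-4 (adjusted p = 0.017), the IL-4 call being lost without IL-4 replicate 2 or 3 and with scaling by the median alone (adjusted p = 0.101). Eif3b, a core scaffold subunit, had log2 signals of 11.48, 11.02 and 11.56 with TGF-β, against 11.73 to 12.10 on untreated arrays (median 11.97). It fell by 0.59 ± 0.15 with TGF-β (adjusted p = 0.00526; -0.42 without TGF-β replicate 2).

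Eif3f was the only eIF3 gene called higher with TGF-β. It rose by 0.28 ± 0.07 with TGF-β (adjusted p = 0.00747), to 13.96, 14.02 and 14.06 against 13.49 to 13.81 on untreated arrays. This call was lost with scaling by the median alone (adjusted p = 0.0702). A second, similarly bright probe of Eif3f gave 0.17 with TGF-β and was not called (adjusted p = 0.159). Eif3a, the largest subunit, was at 11.39, 11.64 and 11.38 with IL-4, 11.58, 11.83 and 11.50 with LPS/IFN-γ and 11.39, 11.73 and 11.50 with TGF-β, against 11.60 to 11.81 on untreated arrays (median 11.67). Its differences of -0.21 with IL-4, -0.05 with LPS/IFN-γ and -0.14 with TGF-β were within the overlap of the arrays and were not called. Eif3h was dim: with LPS/IFN-γ 2 of 3 arrays were above background. Its log2 signal was 5.54, 5.86 and 5.87 with LPS/IFN-γ, against 6.01 to 6.40 on untreated arrays (median 6.21), and it fell by 0.43 ± 0.10 (adjusted p = 0.00159; -0.49 without replicate 3). Eif3j1, a loosely held subunit, was above background on all 3 IL-4 arrays, on no LPS/IFN-γ or TGF-β array and on 2 of 6 untreated arrays. Without the IL-4 arrays it would not have passed the filter. Its log2 signal was 5.17, 4.96 and 5.10 with TGF-β, against 5.22 to 6.01 on untreated arrays (median 5.49). It was called lower with TGF-β (adjusted p = 0.0337), but with so little above background no fold is given, and the call was lost without any 1 of the 3 TGF-β arrays and without untreated replicate 2 or 6.

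Of 9 measured genes of eIF4F, eIF4B and eIF4H, LPS/IFN-γ raised 2 and lowered 5, and TGF-β raised 1 and lowered 6. Of all genes LPS/IFN-γ raised 21.5% and lowered 34.3%, and TGF-β raised 19.7% and lowered 19.0%. Eif4a1, the main RNA helicase of eIF4F, had log2 signals of 13.32, 13.29 and 12.89 with LPS/IFN-γ, against 13.67 to 13.80 on untreated arrays (median 13.71). The LPS/IFN-γ arrays were all lower, replicate 3 most of all. Eif4a1 fell by 0.56 ± 0.09 with LPS/IFN-γ (adjusted p = 7.3e-05; -0.42 without replicate 3). A second probe of the gene gave -0.09 and was not called (adjusted p = 0.38). With TGF-β Eif4a1 fell by 0.26 ± 0.09 (adjusted p = 0.0265), a call lost without any 1 TGF-β array and without untreated replicate 5. The second probe gave -0.11 with TGF-β (adjusted p = 0.339). Eif4a3, a close relative found in the exon junction complex, had log2 signals of 11.28, 11.39 and 11.07 with LPS/IFN-γ, against 11.50 to 11.72 on untreated arrays (median 11.62). It fell by 0.37 ± 0.07 with LPS/IFN-γ (adjusted p = 0.000452; -0.29 without replicate 3) and by 0.24 ± 0.07 with TGF-β (adjusted p = 0.0151; 0.0645 without TGF-β replicate 2).

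Eif4a2, the other eIF4A gene, was called higher with LPS/IFN-γ and TGF-β, and its probes disagreed. The probe used rose by 0.28 ± 0.08 with TGF-β (adjusted p = 0.00751) and by 0.20 ± 0.08 with LPS/IFN-γ (adjusted p = 0.0353; 0.0836 without replicate 3 and 0.103 without replicate 1). A dimmer probe gave -0.53 with LPS/IFN-γ (adjusted p = 0.0433) and -0.10 with TGF-β (adjusted p = 0.74), so the direction for this gene depends on the probe. Eif4e3, a cap-binding relative of eIF4E, had log2 signals of 10.06, 10.01 and 10.04 with LPS/IFN-γ and 9.24, 9.47 and 9.26 with TGF-β, against 9.57 to 9.77 on untreated arrays (median 9.69). Its arrays were above the untreated ones with LPS/IFN-γ and below them with TGF-β. Eif4e3 rose by 0.36 ± 0.07 with LPS/IFN-γ (adjusted p = 0.000566; 0.36 without replicate 3; scaled by the median alone, adjusted p = 0.0612) and fell by 0.35 ± 0.07 with TGF-β (adjusted p = 0.0012).

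Eif4e itself, the cap-binding protein, was dim, and 1 of 3 LPS/IFN-γ arrays was above background for it. Its log2 signal was 6.21, 6.26 and 6.34 with IL-4, 5.69, 6.13 and 5.85 with LPS/IFN-γ and 6.17, 6.47 and 5.92 with TGF-β, against 5.99 to 6.49 on untreated arrays (median 6.23). The LPS/IFN-γ and untreated arrays overlapped, and the call lower (-0.37 ± 0.13, adjusted p = 0.0285) was lost without replicate 3 (adjusted p = 0.0821) or replicate 1 (adjusted p = 0.149) and without untreated replicate 2 or 6. Eif4g2 (DAP5), a scaffold relative that lacks the eIF4E-binding site, had log2 signals of 10.35, 10.64 and 9.72 with LPS/IFN-γ and 10.31, 9.93 and 10.56 with TGF-β, against 10.63 to 11.26 on untreated arrays (median 10.96). It fell by 0.69 ± 0.19 with LPS/IFN-γ (adjusted p = 0.00626) and by 0.66 ± 0.19 with TGF-β (adjusted p = 0.0124). Both rested on single arrays, with -0.43 without LPS/IFN-γ replicate 3 (adjusted p = 0.0597) and -0.49 without TGF-β replicate 2 (adjusted p = 0.0884). Of its other 2 probes, 1 was also called lower with both treatments and 1 was called with neither.

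The late-acting factors Eif5, Eif5a and Eif6 fell with TGF-β, 3 of 4 measured in this group, where 19.0% of all genes fell. Eif5, which makes eIF2 hydrolyse its GTP at the start codon, had log2 signals of 12.63, 12.75 and 12.55 with TGF-β, against 12.99 to 13.13 on untreated arrays (median 13.06). It fell by 0.41 ± 0.08 (adjusted p = 0.000674), and its other 2 probes were called lower as well. Eif5a encodes a protein that carries the amino acid hypusine. Its log2 signal was 11.83, 11.83 and 11.74 with IL-4, 11.98, 12.02 and 11.95 with LPS/IFN-γ and 11.61, 11.43 and 11.55 with TGF-β, against 11.92 to 12.11 on untreated arrays (median 12.002). It was below the untreated range with TGF-β and IL-4 and inside it with LPS/IFN-γ. Eif5a fell by 0.47 ± 0.06 with TGF-β (adjusted p = 2.9e-05), where its other 2 probes were also lower but not called. With IL-4 it fell by 0.20 ± 0.06 at the edge of the threshold (adjusted p = 0.0469), and the call was lost without any 1 of the IL-4 arrays (adjusted p = 0.0851 to 0.185) or of 9 other arrays.

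Eif6 had log2 signals of 13.24, 13.23 and 13.16 with TGF-β, against 13.43 to 13.63 on untreated arrays (median 13.60). It fell by 0.35 ± 0.07 with TGF-β (adjusted p = 0.000594), while a dimmer second probe gave -0.25 (adjusted p = 0.0576) and, with LPS/IFN-γ, 0.56 (adjusted p = 0.000181). With LPS/IFN-γ, at 13.82, 13.86 and 13.66, it was above every untreated array and rose by 0.22 ± 0.07 (adjusted p = 0.0119; 0.28 without replicate 3), although the adjusted p was 0.0638 without LPS/IFN-γ replicate 2 and 0.0699 when scaled by the median alone.

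The 38 genes had 31 further probes, belonging to 22 genes, that were above background on enough arrays. With TGF-β 24 of these probes belonged to a called gene. Of the 24, 23 had the sign of the probe used and 12 were themselves called that way. With LPS/IFN-γ 18 belonged to a called gene, 17 had the same sign and 10 were called. With IL-4 it was 3, 3 and 1. The exception with LPS/IFN-γ and TGF-β was the dim Eif4a2 probe described above. Among genes outside the calls, 4 had a further probe that was called with LPS/IFN-γ, Eif3c at 0.58 (adjusted p = 0.0113), Eif5 at 0.33 (adjusted p = 0.037), Eif4b at -0.64 (adjusted p = 0.0164) and Eif4e2 at -0.44 (adjusted p = 0.00229). With IL-4 a further probe of Eif2b1 was called at -0.39 (adjusted p = 0.0288). These genes were named here after their values were seen.

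**Figure D4:**
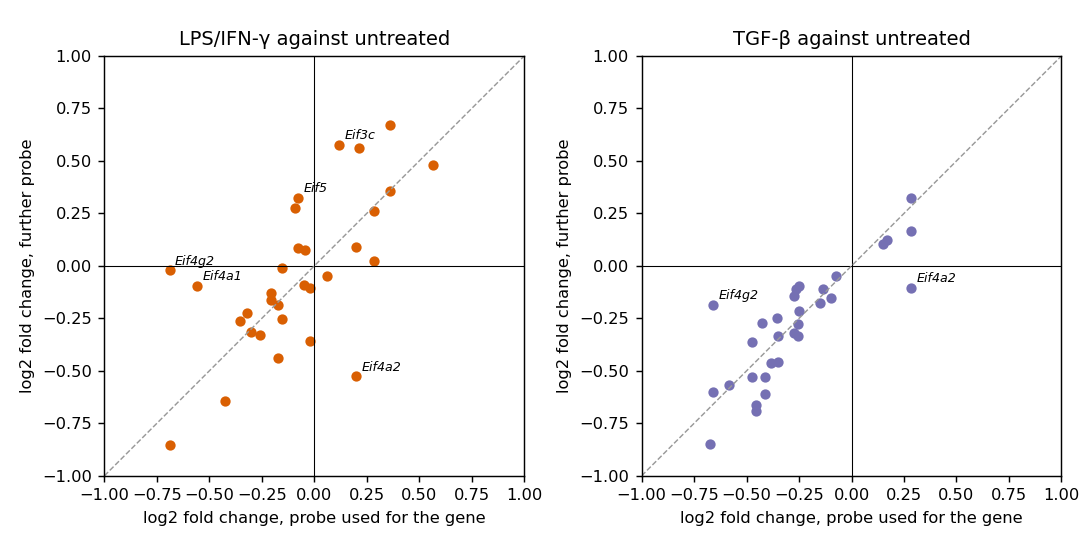
Log2 fold change against untreated of each further probe (y axis) against that of the probe used for its gene (x axis), with LPS/IFN-γ (left) and TGF-β (right), 31 probes each. The dashed line marks equal values and the named genes are those whose probes differ most, among them Eif4a2 at 0.20 and -0.53 with LPS/IFN-γ.

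Because many members fell together with TGF-β, their promoters were read for short motifs, using the 250 bases before each RefSeq transcription start of mouse build GRCm38.p6. Sequences were held for 30 of the 38 genes. The E-box CACGTG, a palindrome known to bind MYC and its relatives, stood in 7 of these 30 genes (23.3%), against 6.86% of 27025 genes. Those 27025 are genes with a promoter sequence whether or not they were measured here. The share among the 8561 measured genes was not computed. Of the 7, Eif4a1, Eif4h and Eif5a fell with TGF-β, Eif3f rose with it, and Eif1b, Eif3k and Eif4e were not called with it. Over all 38 members 21 fell with TGF-β (55.3%). TGATGNAA, a form of the amino acid response element read by ATF4, stood in 1 gene (3.33%, against 3.91%). TTCNNNGAA, read by STAT factors, stood in 2 (6.67%, against 8.13%) and CCAAT in 10 (33.3%, against 37.5%). Both strands were searched, and a match is a description of the letters, not a bound site. The 60 bases around 1 E-box of each of the 7 genes follow on the gene's strand, with the E-box in capitals, to show how the same letters sit in unlike surroundings. They lie at chr9:120492546-120492605 (plus) for Eif1b, chr7:108934320-108934379 (plus) for Eif3f, chr7:28981900-28981959 (minus) for Eif3k, chr11:69672580-69672639 (minus) for Eif4a1, chr3:138527177-138527236 (plus) for Eif4e, chr5:134639473-134639532 (minus) for Eif4h and chr11:69921428-69921487 (minus) for Eif5a.
Eif1b: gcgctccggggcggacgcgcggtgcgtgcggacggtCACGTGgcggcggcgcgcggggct
Eif3f: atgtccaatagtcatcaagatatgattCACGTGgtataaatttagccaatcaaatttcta
Eif3k: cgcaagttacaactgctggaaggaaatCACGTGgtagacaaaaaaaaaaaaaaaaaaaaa
Eif4a1: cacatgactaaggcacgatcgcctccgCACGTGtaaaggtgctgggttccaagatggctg
Eif4e: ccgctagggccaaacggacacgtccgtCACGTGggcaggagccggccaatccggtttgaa
Eif4h: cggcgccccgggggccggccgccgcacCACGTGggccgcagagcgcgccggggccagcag
Eif5a: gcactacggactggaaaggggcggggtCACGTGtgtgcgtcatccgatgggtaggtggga

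Regulators and partners of initiation, 42 listed genes of which 38 were measured, were called no more often, in either direction together, than all genes. With LPS/IFN-γ 8 rose and 9 fell, where 55.7% of all genes were called. With TGF-β 3 rose and 11 fell, where 38.8% of all genes were called and 19.0% were lower. With IL-4 1 rose, the eIF4E kinase gene Mknk2, where 12% were called. The median log2 difference of this list was -0.14 with TGF-β, against -0.002 over all genes. The genes described next were taken from this list by size of change or by name, and do not stand for the list. Atf4, the transcription factor translated when eIF2 is phosphorylated, had log2 signals of 13.09, 13.17 and 13.09 with LPS/IFN-γ and 11.86, 11.93 and 11.91 with TGF-β, against 12.52 to 12.89 on untreated arrays (median 12.65). Neither treatment overlapped the untreated arrays. Atf4 rose by 0.46 ± 0.08 with LPS/IFN-γ (adjusted p = 0.000244; 0.47 without replicate 3) and fell by 0.76 ± 0.08 with TGF-β (adjusted p = 4.3e-06).

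Ddit3 (CHOP), a transcription factor induced downstream of ATF4, had log2 signals of 11.03, 11.15 and 11.60 with LPS/IFN-γ and 7.90, 7.99 and 8.10 with TGF-β, against 8.79 to 9.36 on untreated arrays (median 9.04). It rose by 2.20 ± 0.12 with LPS/IFN-γ (adjusted p = 8.2e-10; 2.03 without replicate 3) and fell by 1.06 ± 0.12 with TGF-β (adjusted p = 9.6e-06). Trib3, a pseudokinase known as a target of both factors, had log2 signals of 11.49, 11.43 and 12.32 with LPS/IFN-γ and 8.36, 8.59 and 8.22 with TGF-β, against 8.83 to 9.24 on untreated arrays (median 8.99). Both genes were clear of the untreated arrays with each of the 2 treatments. Trib3 rose by 2.73 ± 0.16 with LPS/IFN-γ (adjusted p = 1.3e-09; 2.44 without replicate 3) and fell by 0.63 ± 0.16 with TGF-β (adjusted p = 0.0057). Sesn2, which restrains mTOR, was dim, above background on 1 of 3 TGF-β arrays, and its calls, higher with LPS/IFN-γ and lower with TGF-β, were lost without LPS/IFN-γ replicate 1 or 2 and without TGF-β replicate 2 or 3.

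Of the eIF2 kinase genes and the phosphatase partner genes Ppp1r15a and Ppp1r15b, Ppp1r15a and Eif2ak2 rose with LPS/IFN-γ. Eif2ak1, Eif2ak3, Eif2ak4 and Ppp1r15b were not called with it, and Eif2ak3 was above background on no LPS/IFN-γ array. Ppp1r15a (GADD34), which directs a phosphatase to eIF2, had log2 signals of 10.03, 9.92 and 10.61 with LPS/IFN-γ and 9.05, 8.87 and 8.94 with TGF-β, against 8.92 to 9.28 on untreated arrays (median 9.15). It rose by 1.05 ± 0.13 with LPS/IFN-γ (adjusted p = 4.5e-06; 0.84 without replicate 3), and its TGF-β difference was -0.18 ± 0.13. Eif2ak2 (PKR), an interferon-induced kinase of eIF2, had log2 signals of 11.84, 11.61 and 11.21 with LPS/IFN-γ, against 10.11 to 10.34 on untreated arrays (median 10.26). It rose by 1.32 ± 0.11 (adjusted p = 9.2e-08; 1.49 without replicate 3). The 3 lowest of the list with LPS/IFN-γ were Deptor, an inhibitor of mTOR (-1.89 ± 0.11), Mknk2 (-0.55 ± 0.08) and Mtif3, a mitochondrial initiation factor (-0.54 ± 0.11). Without replicate 3 these were -1.78, -0.60 and -0.38. With TGF-β they were Ddit3, Mtif3 (-1.02 ± 0.11) and Deptor (-0.92 ± 0.11). A second Mtif3 probe gave 0.14 with TGF-β (adjusted p = 0.291) and -0.16 with LPS/IFN-γ (adjusted p = 0.178), so the values of this gene depend on the probe. With TGF-β the 3 that rose were Nck1, an adaptor protein (0.64 ± 0.09), the eIF2 kinase gene Eif2ak4 (0.43 ± 0.11) and Paip2, which restrains the poly(A)-binding protein (0.30 ± 0.10). The Eif2ak4 and Paip2 calls were lost with scaling by the median alone (highest adjusted p = 0.119 and 0.416 over all alternatives), and that of Paip2 without TGF-β replicate 2 or untreated replicate 1, 3, 4 or 6.

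**Figure D5:**
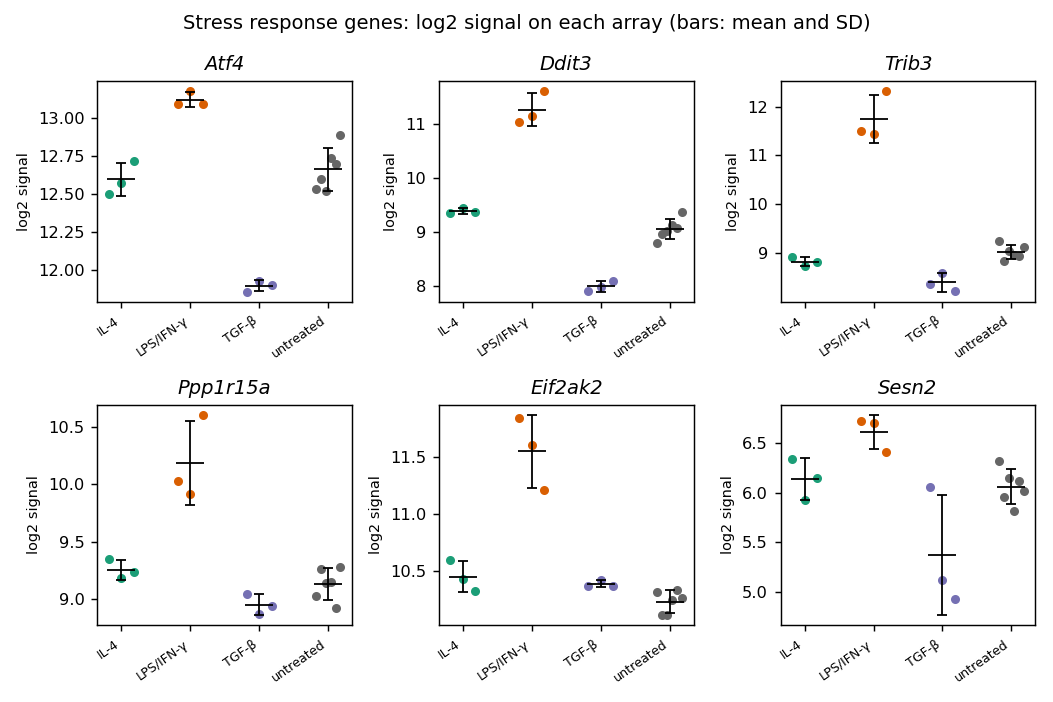
Log2 signal (y axis, a separate range in each panel) on every array for 6 genes of the eIF2 stress arm and mTOR control in IL-4, LPS/IFN-γ, TGF-β and untreated cells, left to right. Points are arrays and bars the mean and SD; Ddit3 lies between 11.03 and 11.60 with LPS/IFN-γ and between 7.90 and 8.10 with TGF-β, against 8.79 to 9.36 untreated.

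Elongation and termination factors, the machinery that takes over after initiation, were listed beside them. Of 15 measured, TGF-β lowered 3 (Eef1d, Eef1e1 and Dph2) and raised 1 (Eef1a2), LPS/IFN-γ lowered 4 (Eef1a2, Etf1, Pelo and Dph1), and IL-4 changed none. The shares of all genes called were 38.8% with TGF-β and 55.7% with LPS/IFN-γ. The LPS/IFN-γ calls of Pelo (adjusted p = 0.0438) and Dph1 (adjusted p = 0.0374) were lost under 15 and 8 alternatives, that of Pelo without LPS/IFN-γ replicate 2 or 3 and that of Dph1 without replicate 1, and the TGF-β call of Dph2 without TGF-β replicate 1 or 3. With scaling by the median alone TGF-β gave 6 lower. Their median log2 difference with TGF-β was 0.01, against -0.002 over all genes, and it was -0.06 with scaling by the median alone, where all genes had -0.13. Eef1e1, an aminoacyl-tRNA synthetase complex protein, fell by 0.68 ± 0.08 with TGF-β (adjusted p = 5.3e-06), and Etf1, the release factor that reads stop codons, fell by 0.46 ± 0.07 with LPS/IFN-γ (-0.41 without replicate 3). Eef1a2, a paralog of the main elongation factor, was above background on 3 of 3 TGF-β arrays, on 0 of 3 LPS/IFN-γ arrays and on 1 of 6 untreated arrays. It passed the filter only through the TGF-β arrays, so its place in these counts follows partly from the filter. Its lower call with LPS/IFN-γ compares signals that were mostly at background. Eef1a1, the main elongation factor, named after its values were seen, was at 15.04, 15.03 and 15.05 with TGF-β, against 14.91 to 15.07 on untreated arrays, and was not called with any treatment. The difference between the initiation and elongation lists was not tested.

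The treatments were also compared with each other on the same arrays. Between LPS/IFN-γ and TGF-β 13 initiation factor genes were higher with LPS/IFN-γ (34.2%, against 23.3% of all genes) and 3 were lower (7.89%, against 32.4%). The total of 16 was 42.1%, against 55.7% of all genes. Eif4ebp1 differed by 1.31 ± 0.09 (adjusted p = 7.3e-09), Eif1ad by 0.74 ± 0.08 (adjusted p = 1.2e-06), Eif2s2 by 0.73 ± 0.08 (adjusted p = 1.0e-06) and Eif4e3 by 0.71 ± 0.08 (adjusted p = 3.1e-06), all higher with LPS/IFN-γ. Eif1b differed by -0.74 ± 0.08 (adjusted p = 1.1e-06). The arrays did not overlap for 20 members (52.6%, against 58.1% of all genes), 16 of them higher with LPS/IFN-γ (42.1%, against 24.7%) and 4 lower (10.5%, against 33.3%). Without LPS/IFN-γ replicate 3 the counts were 15 higher and 3 lower.

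Between LPS/IFN-γ and IL-4 9 members were higher with LPS/IFN-γ (23.7%, against 21.5% of all genes) and 5 were lower (13.2%, against 29.3%), 14 in all (36.8%, against 50.8%). Eif4ebp1 (1.06 ± 0.09) and Eif2d (0.87 ± 0.09) had the highest differences. The arrays did not overlap for 20 members (52.6%, against 54.1% of all genes), 11 higher (28.9%, against 22.9%) and 9 lower (23.7%, against 31.2%). Without LPS/IFN-γ replicate 3 the counts were 11 higher and 5 lower. Between IL-4 and TGF-β 10 were higher with IL-4 (26.3%, against 13.8% of all genes) and 1, Eif3f, was lower (2.63%, against 16.6%), 11 in all (28.9%, against 30.4%). Eif2s2 was 0.63 ± 0.08 higher with IL-4 (adjusted p = 1.9e-05) and Eif1ad 0.47 ± 0.08 (adjusted p = 0.000336). The arrays did not overlap for 20 members (52.6%, against 44.8% of all genes), 16 higher (42.1%, against 20.5%) and 4 lower (10.5%, against 24.3%). Eif3j1 was called higher with IL-4 in both comparisons that include IL-4. It passed the filter only because of its IL-4 arrays, so its place in these counts follows partly from the filter. The comparisons between treatments reuse the arrays of the comparisons with untreated cells and are not independent of them.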

How the data were processed

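RNA of each sample was measured on 1 Illumina bead array, 15 in all. The deposited signals are intensity values per probe, with no background subtracted, and each comes with a detection p-value against negative controls, per the file headers. The authors also deposited a table of log2 values. Partek is named in the submitters' processing notes, and neither its version nor its steps is given in the sources used here. Those values equal quantile-normalized log2 signals with a chip effect removed (median absolute difference 2.9e-06), so that table was used as an alternative and not for the main values.

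Signals were corrected with neqc (offset 16), quantile-normalized and put on the log2 scale with limma 3.58.1 in R 4.3.3. Of all probes 15434 passed a detection p of 0.01 on 3 or more of 15 arrays, and 13310 of these had 1 symbol. Symbols came from the platform annotation, updated through RefSeq gene IDs; 34885 probes had 1 symbol, 18 several, and 10378 were not listed. The probe with the highest mean stood for a gene. A model of 4 group means was fitted to all genes with lmFit and eBayes, the Benjamini-Hochberg adjustment ran over all genes of each comparison, and calls used 0.05. The fit was tested on simulated data. Deviations of same-numbered arrays correlated positively in all 3 pairs of LPS/IFN-γ with IL-4 (0.226, 0.306 and 0.156). They did so too for IL-4 with untreated (0.319, 0.252 and 0.067) and for LPS/IFN-γ with untreated (0.182, 0.178 and 0.035). In those 2 comparisons the arrays numbered 3 lay on different chips. Pairs with TGF-β had correlations of both signs. Precision depends on how many arrays each group had: differences from untreated had a median standard error of 0.101 on the log2 scale.

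The members and all gene lists were chosen with earlier results of these data known. Array values are given for called members with no overlap among the 12 with the largest change in a comparison with untreated, and for Eif4ebp1, Eif2b5, Eif4e, Eif3a and Eif5a; Eif2s1 was not analysed here. Of the regulator and elongation lists, the 3 highest and 3 lowest called genes were taken, with Ppp1r15a, Atf4, Ddit3 and Eif2ak2. Other genes are named where they make up a count. Alternatives covered background correction, scaling, the deposited log2 table, which probe stands for a gene, no filter on dim signals, blocks for chip or for replicate number, array weights, and each array left out.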

Additional observations from a re-analysis of the deposited data

Results flagged for a closer look

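Of 38 initiation factor genes examined in the 6 untreated arrays, 1 had an array far from the others. Eif3f had a log2 signal of 13.49 in untreated replicate 1, while the nearest of the other untreated arrays was at 13.73 and the highest at 13.81. Chance flags about 1 in 20 such groups, so 1 of 38 is no more than chance gives.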

How the results depend on the processing

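Over the alternatives other than single chips, 2624 values of single genes kept their direction and side of the threshold, 160 lost a call, 40 gained one and 5 reversed. The 5 are Eif3i with LPS/IFN-γ under cyclic loess (0.0057, adjusted p = 0.95), Eif4a2 with LPS/IFN-γ from the mean of its probes (-0.078, adjusted p = 0.506) and from its dim probe (-0.53), Eif4a2 with TGF-β from that probe (-0.10), and Eif5 with LPS/IFN-γ from another probe (0.33); beyond the choice of probe or scaling the cause was not tested. The 6 IL-4 calls became 3 with scaling by the median alone, 11 in the authors' log2 table, whose removed chip terms a later fit cannot count, and 3 to 8 leaving out 1 array, with 3 without each IL-4 replicate. The 23 TGF-β calls became 15 to 24 leaving out 1 array, the lowest without TGF-β replicate 2. The 24 LPS/IFN-γ calls became 16 to 25, the lowest without replicate 3. The 11 calls between IL-4 and TGF-β became 18 in the authors' table and 6 to 15 leaving out 1 array (7 without IL-4 replicate 1, 7 without TGF-β replicate 2, 6 without TGF-β replicate 3). The other counts became 12 to 16 (LPS/IFN-γ and IL-4) and 15 to 18 (LPS/IFN-γ and TGF-β) leaving out 1 array. Of all genes called with LPS/IFN-γ, 38.5% were higher, 49.9% with cyclic loess and 28.1% with the median alone; for TGF-β these were 50.9%, 56.7% and 26.9%, and for IL-4 47.2%, 59.3% and 33.3%. Replicate numbers, which for treated arrays are also chip numbers, are not said to pair treated with untreated arrays. Correlations of same-numbered deviations between them ran from -0.09 to 0.32. They were positive in all 3 pairs for IL-4 and for LPS/IFN-γ, and of both signs for TGF-β. With a replicate block the TGF-β calls numbered 14 (2 higher, 12 lower), the LPS/IFN-γ calls 16 and the IL-4 calls 4. Between LPS/IFN-γ and IL-4, whose same-numbered arrays deviated together, the block gave 13 calls in place of 14. Signals near background limit Eif3j1, Eif3h and Eif4e.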
